A study of Homo sapiens with 9 samples.

Results

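TIGAR, SLC7A6 and ACSF3 are 3 metabolic genes whose promoters lay at some of the highest-scoring ZNF395 sites of the renal carcinoma line 786-O. The members were chosen by the score of their promoter peak in tagged 786-O, and every peak of the 5 deposited lists within 10 kb of their transcription start sites (TSS) was taken, which gave 11 of the 52875 peaks in all. On the hg19 build, the TSS positions that came with this choice were 4430371 on chromosome 12 for TIGAR, 68298433 on chromosome 16 for SLC7A6 and 89160217 on chromosome 16 for ACSF3. All 3 genes are on the plus strand in RefSeq. Values of tagged 786-O are therefore given as a description, and the ranks in A498 and for MYC were also known when they were picked.

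The series used chromatin immunoprecipitation and sequencing (ChIP-seq) in 786-O and A498, established lines from clear cell renal cell carcinoma. In each line an antibody against GFP was applied to cells with an eGFP knock-in at the end of the ZNF395 gene (tagged cells) and to parental cells without it, and parental 786-O was also precipitated with an antibody against MYC. Each of these 5 groups is 1 library with 1 peak list, and 4 input samples have none. The labels do not say whether tagged cells were 1 clone or a pool, and no treatment beyond the knock-in is given. A498 and MYC are named here by sample title: the cell line field reads 786-O for the A498 samples as well, and the target field of the MYC sample reads P300 while its antibody field reads c-Myc. Without a replicate in any group, no difference below could be set against replicate spread and no test was made.

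The 3 genes act in separate branches of metabolism. TIGAR encodes a phosphatase, known as a p53-induced gene, that lowers a fructose bisphosphate which stimulates glycolysis and so directs glucose carbon into the pentose phosphate pathway and NADPH production. SLC7A6 encodes the light chain of a plasma membrane transporter that pairs with the heavy chain SLC3A2 and exchanges cationic for neutral amino acids. ACSF3 encodes the malonyl-CoA synthetase of mitochondria, which activates malonate and feeds mitochondrial fatty acid synthesis. ZNF395 is a zinc finger protein that binds DNA, and MYC is a transcription factor of growth and biosynthesis genes that binds CACGTG (the E-box) with its partner MAX. Clear cell renal carcinoma is known for altered glucose, amino acid and lipid metabolism.

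The 250 bases before each annotated start are shown because every promoter peak held the hg19 TSS. Whether that TSS and the annotated start are the same position was not checked. The 250 bases cover only part of the peaks. The tagged 786-O peaks also reached 628 bp downstream of the TSS at TIGAR, 407 bp at SLC7A6 and 636 bp at ACSF3. At ACSF3 the midpoints of all promoter peaks lay downstream. Sequence outside the 250 bases was not searched, so a missing match below holds only for this window. They are RefSeq sequences of build GRCh38.p14, plus strand, at chr12:4320963-4321212 for TIGAR, chr16:68264276-68264525 for SLC7A6 and chr16:89093602-89093851 for ACSF3, and were matched by symbol, since the peaks are on hg19. Capitals mark GCCGGCG, an element that ZNF395 was described to bind in earlier work on another promoter, and ACGTG, both on either strand.
TIGAR: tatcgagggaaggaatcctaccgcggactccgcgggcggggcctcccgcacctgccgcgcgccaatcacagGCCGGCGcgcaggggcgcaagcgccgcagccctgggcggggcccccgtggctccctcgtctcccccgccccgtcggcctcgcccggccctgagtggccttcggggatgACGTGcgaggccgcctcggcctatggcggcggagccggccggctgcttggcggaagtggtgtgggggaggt
SLC7A6: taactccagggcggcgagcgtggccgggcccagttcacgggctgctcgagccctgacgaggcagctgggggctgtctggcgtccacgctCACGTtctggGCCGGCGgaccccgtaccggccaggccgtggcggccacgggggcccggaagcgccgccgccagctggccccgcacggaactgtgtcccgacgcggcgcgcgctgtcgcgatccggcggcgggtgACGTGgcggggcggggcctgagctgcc
ACSF3: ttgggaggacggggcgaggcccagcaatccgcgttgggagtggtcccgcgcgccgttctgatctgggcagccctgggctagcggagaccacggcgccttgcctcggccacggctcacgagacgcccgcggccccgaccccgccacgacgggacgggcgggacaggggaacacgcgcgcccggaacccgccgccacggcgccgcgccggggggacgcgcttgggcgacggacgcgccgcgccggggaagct

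All 3 promoters were rich in G and C. The GC content was 76.8% for TIGAR, 77.6% for SLC7A6 and 78.0% for ACSF3, against a median of 58.0% over the 35114 RefSeq promoters of the same length. ACSF3 held 43 CpG pairs, a number exceeded by 0.769% of promoters, and TIGAR and SLC7A6 held 34 and 37, beside a median of 11.0. None of the 3 had the TATAAA box, which 10.7% of promoters held, and 1.49% of the 2622 with a GC content of at least 76.8%, the lowest of the 3 members.

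GCCGGCG, searched on both strands, occurred 1 time in TIGAR, 179 to 173 bases before the start, and 1 time in SLC7A6, 151 to 145 bases before it. ACSF3 had no match in this window. Of all 35114 promoters 8.88% held the element, and of the 2622 GC-rich ones the share was 35.7%. Its inner CCGG, which lies in every GCCGGCG, occurred 4 times in TIGAR, 5 times in SLC7A6 and 3 times in ACSF3, beside a median of 5.0 in the GC-rich promoters. A match is a description of the letters and not a bound site.

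The MYC element CACGTG was in none of the 3 windows, and 6.35% of all promoters and 8.24% of the GC-rich ones held it. The shorter ACGTG, which is part of CACGTG, had 1 match in TIGAR, 2 in SLC7A6 and none in ACSF3. It was held by 18.5% of all promoters and 17.8% of the GC-rich ones. In TIGAR and in SLC7A6 a match extended to TGACGTG, at 73 to 67 and at 29 to 23 bases before the start. This longer string was picked after the sequences had been read, and 1.68% of all promoters and 1.98% of the GC-rich ones held it. GGGCGG, the core of the GC box, had 3 matches in TIGAR, 2 in SLC7A6 and 1 in ACSF3. It was held by 42.6% of all promoters and by 96.4% of the GC-rich ones, with a median of 3.0 matches there.

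The peak score is the authors' own value, read as a −log10 of a p or q, and was used only to order the peaks of 1 list. At TIGAR, the tagged 786-O peak at chr12:4429864-4430999 was 1136 bp wide, with a score of 249.8 and rank 6 of 20034. The tagged A498 peak, at chr12:4429990-4430688, was 699 bp wide, with a score of 156.3 and rank 9 of 7718. The MYC peak, at chr12:4430106-4430552, was 447 bp wide, with a score of 33.0 and rank 5202 of 20199. The TIGAR promoter thus stood near the top of both tagged lists and in the upper 25.8% of the MYC list.

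At SLC7A6, the tagged 786-O peak at chr16:68297870-68298840 was 971 bp wide, with a score of 242.0 and rank 10. The tagged A498 peak, at chr16:68298004-68298970, was 967 bp wide, with a score of 156.9 and rank 8. The MYC peak, at chr16:68298059-68299350, was 1292 bp wide, with a score of 43.3 and rank 3785, in the upper 18.7% of its list. By score, this transporter gene held the best MYC promoter rank of the 3 genes. By score per base of width, an alternative order, it was the lowest, with MYC rank 12128 against 3688 for TIGAR and 4930 for ACSF3.

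At ACSF3, the tagged 786-O peak at chr16:89159947-89160853 was 907 bp wide, with a score of 242.1 and rank 9. The tagged A498 peak, at chr16:89160044-89160410, was 367 bp wide, with a score of 91.7 and rank 25. The MYC peak, at chr16:89160085-89160607, was 523 bp wide, with a score of 33.2 and rank 5170, in the upper 25.6% of its list. By score, ACSF3 stood lowest of the 3 genes in the A498 list. By score per base it stood highest there, with rank 20 against 37 for TIGAR and 75 for SLC7A6. In tagged 786-O, ACSF3 also stood highest by score per base, with rank 62 against 86 for SLC7A6 and 125 for TIGAR.

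**Figure D1:**
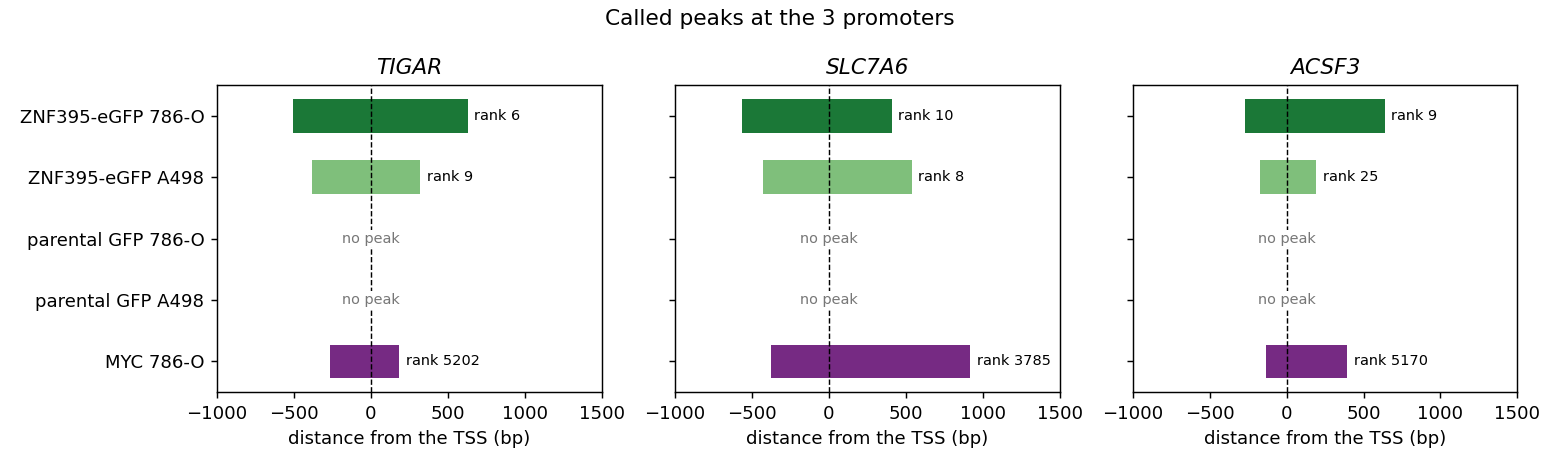
Called peaks at each promoter, drawn to scale as distance from the TSS in bp (dashed line), with 1 bar per library and its rank beside it. All 9 bars hold the TSS, neither parental library has a peak, and the A498 bar of ACSF3 (367 bp) is the narrowest.

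Neither parental list had a peak within 10 kb of any of the 3 starts. Over the whole tagged 786-O list 87.8% of peaks overlapped no parental 786-O peak and 87.0% overlapped none of either line, so a lack of parental peaks is common. Among the 100 highest tagged 786-O peaks it was less common, at 73 and 72 peaks. The nearest parental peak to any member was in 786-O, 37.2 kb upstream of ACSF3, with a score of 2.84 and rank 3155 of 3361. From TIGAR the nearest parental peaks were 763 kb away in 786-O and 325 kb away in A498, and from SLC7A6 458 kb and 3590 kb away.

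The tagged A498 list overlapped all 3 tagged 786-O promoter peaks by at least 1 bp, as did the MYC list. Over all tagged 786-O peaks, 20.5% overlapped a tagged A498 peak and 60.6% a MYC peak. Among the 100 highest, 96 did so with A498 and 83 with MYC. An A498 peak, a MYC peak and no parental peak of either line occurred together at 12.3% of all tagged 786-O peaks and at 58 of the 100 highest. The members thus shared this state with more than 50% of the strongest tagged peaks. When each peak of a pair had to cover at least 50% of the other, TIGAR and SLC7A6 kept their A498 partner and SLC7A6 and ACSF3 their MYC partner, against 7.18% and 40.0% of all tagged 786-O peaks. Shares under this stricter rule were not computed for the 100 highest peaks. It therefore does not show whether the members differ from other strong peaks.

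The members were also set beside the 100 highest tagged 786-O peaks. Of the 96 with an A498 peak, 7 had a better A498 rank than SLC7A6, 8 than TIGAR and 23 than ACSF3, and the median A498 rank was 111. For MYC the members lay in the middle range: the median MYC rank was 5231 over the 83 with a MYC peak, with quartiles of 1943 and 10229. Of these 83, 33 had a better MYC rank than SLC7A6, 39 than ACSF3 and 40 than TIGAR.

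**Figure D2:**
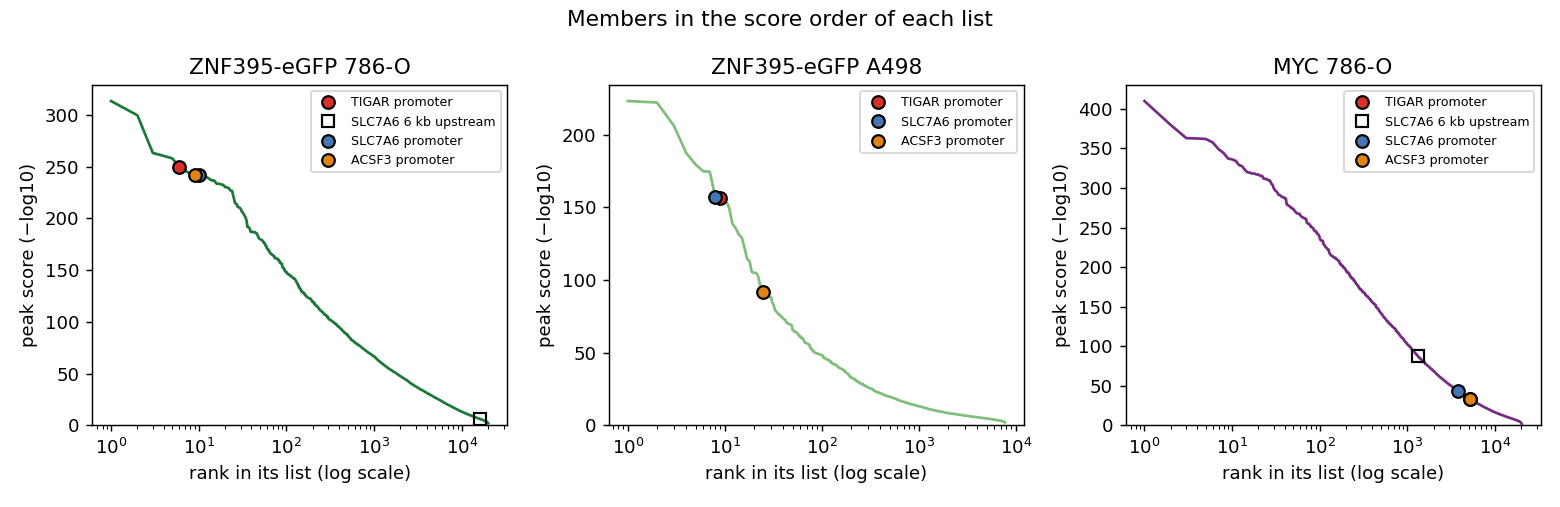
Peak score (−log10) against rank on a log scale in the tagged 786-O, tagged A498 and MYC lists, with the line for all peaks and a point for each peak within 10 kb of a member. The promoters lie at ranks 6 to 10 in 786-O, 8 to 25 in A498 and 3785 to 5202 for MYC, where the TIGAR point is hidden by that of ACSF3.

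Peak width differed among the genes, most of all in A498 and for MYC. In tagged 786-O the 3 promoter peaks were close to the usual width of strong peaks: the 100 peaks nearest in rank had a median of 972.5 bp for TIGAR and 981.0 bp for SLC7A6 and ACSF3, and 34, 51 and 60 of them were wider. In A498 the peak of SLC7A6 was wide for its rank, with 14 of 100 wider, and that of ACSF3 was narrow, with 78 of 100 wider. For TIGAR 35 of 100 were wider. The MYC peak of SLC7A6 was among the widest for its rank, with 4 of 100 wider, against 66 for TIGAR and 61 for ACSF3.

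The ratio of the 786-O to the A498 width was 1.63 at TIGAR, 1.00 at SLC7A6 and 2.47 at ACSF3. Over the 96 highest tagged 786-O peaks with an A498 peak its median was 1.91, with quartiles of 1.46 and 2.49, so SLC7A6 lay below the middle range and the other genes within it. The ratio of the 786-O to the MYC width was 2.54 at TIGAR, 0.752 at SLC7A6 and 1.73 at ACSF3, against a median of 1.43 and quartiles of 1.07 and 2.17. By this ratio TIGAR lay above the middle range, SLC7A6 below it and ACSF3 within it. The MYC peaks of TIGAR and ACSF3 lay wholly inside their tagged 786-O peaks, and that of SLC7A6 was wider than its tagged peak. Width also follows the depth of a library, and the depth behind single peaks is unknown.

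**Figure D3:**
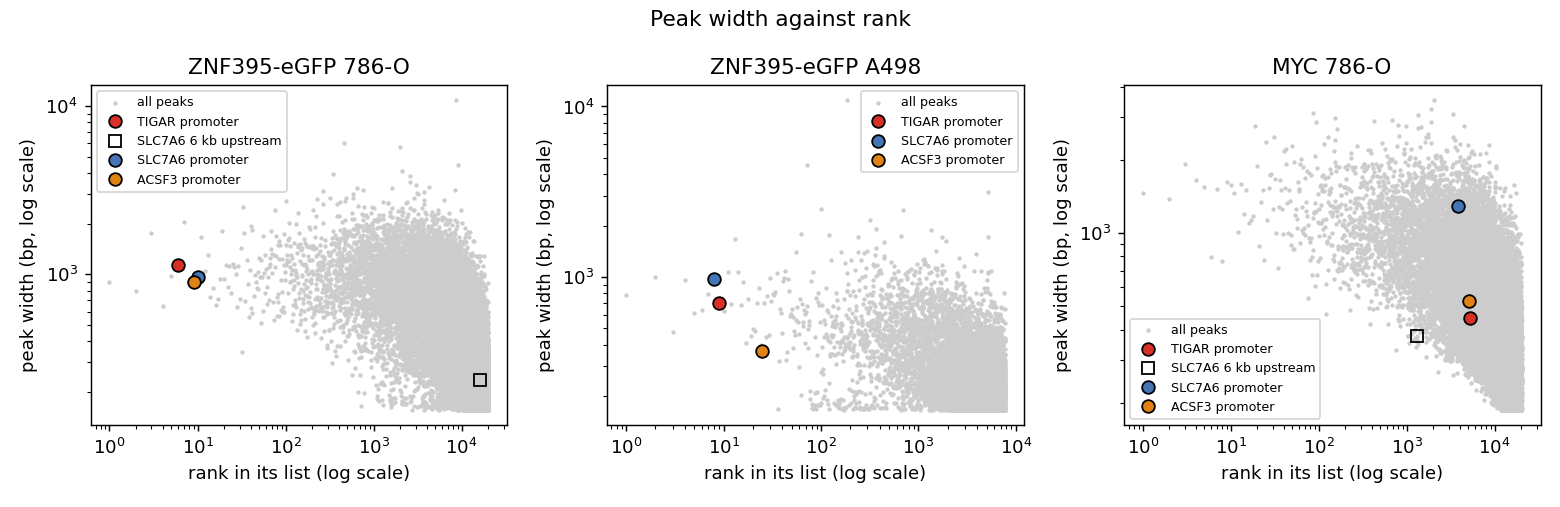
Peak width in bp against rank, both on log scales, with every peak of the list in grey and the members' peaks in colour. SLC7A6 lies high in the MYC panel (1292 bp) and in the A498 panel (967 bp), while ACSF3 lies low in the A498 panel (367 bp).

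The stretch common to the tagged 786-O, tagged A498 and MYC peaks held the TSS at each gene. At TIGAR it was the whole MYC peak, 447 bp from 265 bp upstream to 181 bp downstream of the TSS. At SLC7A6 it was 782 bp, from 374 bp upstream to 407 bp downstream. At ACSF3 it was 326 bp, from 132 bp upstream to 193 bp downstream. At TIGAR and ACSF3 these stretches are shorter than the sonicated fragments of about 500 bp.

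The midpoints of the peaks lay close to the TSS. At TIGAR the midpoint was 60.0 bp downstream in tagged 786-O, 32.5 bp upstream in A498 and 42.5 bp upstream for MYC. At ACSF3 the midpoints were 182.5, 9.5 and 128.5 bp downstream in the same order. At SLC7A6 the tagged 786-O midpoint was 78.5 bp upstream and the A498 midpoint 53.5 bp downstream, while the MYC midpoint was 271.0 bp downstream. The MYC peak of SLC7A6 reached 917 bp into the gene, against 407 bp for the tagged 786-O peak, and its midpoint was 349.5 bp from the tagged one, the largest shift of the 3 genes. At TIGAR and ACSF3 that distance was 102.5 and 54.0 bp.

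SLC7A6 alone of the 3 genes had a further site within 10 kb. A tagged 786-O peak at chr16:68291902-68292136, 6.3 kb upstream of the TSS, was 235 bp wide, with a score of 5.96 and rank 16292 of 20034. The MYC peak there, at chr16:68291951-68292326, was 376 bp wide, with a score of 87.29 and rank 1324 of 20199, and both peaks overlapped by 186 bp. Neither A498 library nor parental 786-O had a peak there. The order of the sites was therefore opposite in the tagged 786-O and MYC lists. The promoter ranked 10 and the upstream site 16292 in the tagged list, and 3785 and 1324 in the MYC list. These libraries differ in cells as well as antibody, since MYC was precipitated from parental 786-O.

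The closest peaks of SLC7A6 beyond 10 kb, 19.1 kb upstream in tagged 786-O (rank 14286) and 19.0 kb upstream for MYC (rank 19076), ranked below the promoter in both lists. Farther out, at 26.4 kb upstream, the MYC peak was 1352 bp wide and had rank 1149, above the promoter, while the tagged 786-O peak that it overlaps had a score of 9.05 and rank 12949. A pair 45.9 and 46.2 kb downstream held ranks 8530 and 7182. Tagged A498 had no peak within 100 kb of SLC7A6 other than the promoter peak. RefSeq places SLC7A6OS, which overlaps SLC7A6, and PRMT7 next to it on one side, and PLA2G15 and ESRP2 on the other; the distal peaks were not assigned to genes.

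In tagged 786-O and for MYC, TIGAR and ACSF3 had fewer peaks within 100 kb than SLC7A6. Tagged A498 differed: its nearest other peak was 179 kb from SLC7A6, 147 kb from ACSF3 and 70.3 kb from TIGAR. Within 100 kb of TIGAR, tagged 786-O and MYC had no other peak, and tagged A498 had 1, 70.3 kb upstream, with a score of 3.45 and rank 6498 of 7718. The next peaks of tagged 786-O and of MYC were both 217 kb downstream. Within 100 kb of ACSF3, tagged 786-O had peaks 73.7 and 92.1 kb downstream (ranks 18279 and 5599), MYC had 1 at 77.5 kb downstream (rank 4436), and tagged A498 had none. The protein-coding neighbours in RefSeq are CCND2 and FGF23 for TIGAR, and CDH15 after ACSF3.

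**Figure D4:**
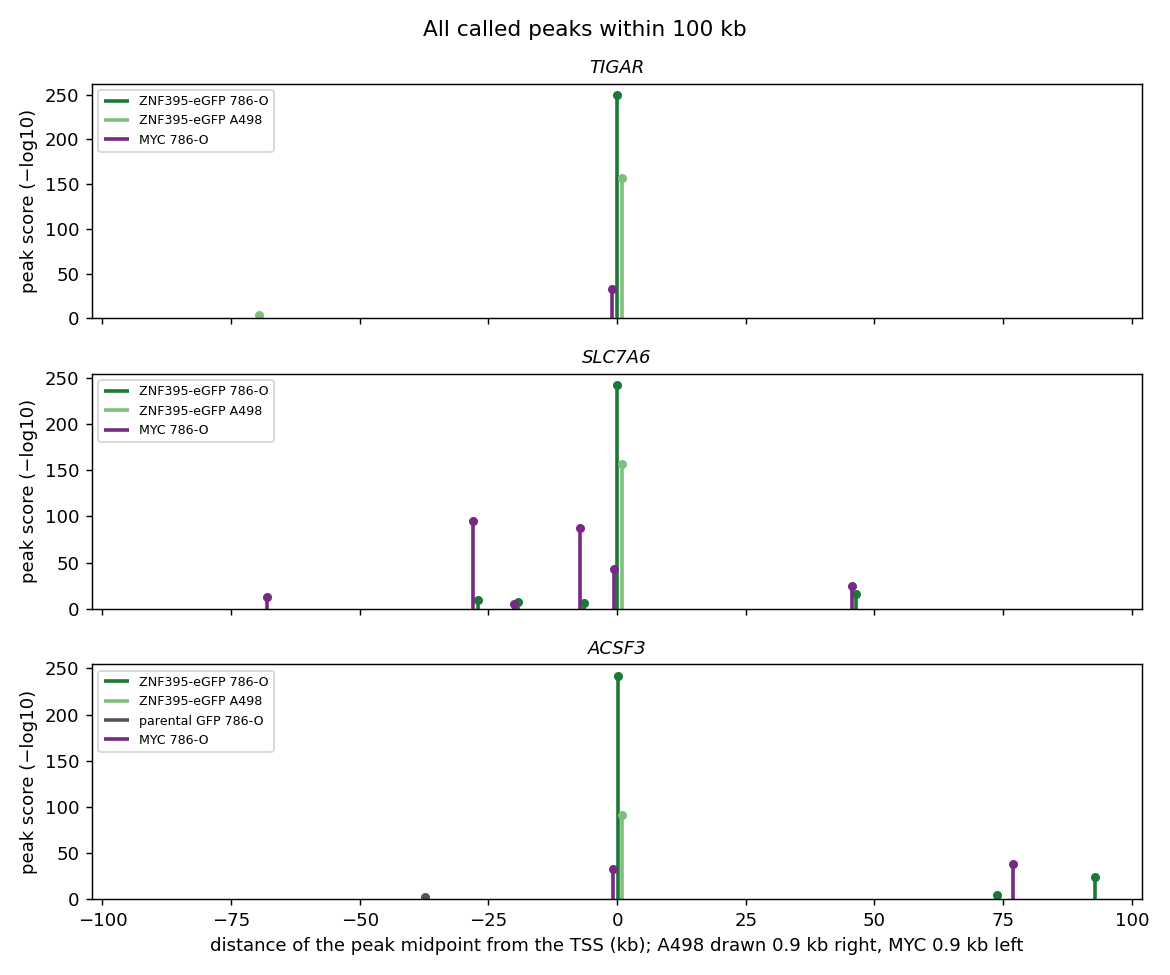
Scores (−log10) of all called peaks within 100 kb of each TSS, by distance in kb, with A498 and MYC drawn slightly to the side so that bars do not hide each other. Heights are comparable only within a library; at SLC7A6 the MYC bars 26.4 and 6.11 kb upstream exceed the one at the promoter, while the tagged 786-O promoter bar exceeds all its neighbours.

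Within 1 Mb, each promoter was the highest tagged peak in both lines. Around TIGAR the region held 10 tagged 786-O, 3 tagged A498 and 11 MYC peaks, around SLC7A6 45, 14 and 48, and around ACSF3 55, 22 and 64. The best other tagged 786-O peak had rank 5240 near TIGAR, 87 near SLC7A6 and 142 near ACSF3. The MYC list was ordered otherwise: 2 other peaks within 1 Mb scored above the TIGAR promoter, 9 above that of SLC7A6 and 24 above that of ACSF3. Since the members were chosen for high tagged scores, the first of these orders follows in part from the choice.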

How the data were processed

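Peak lists of 5 libraries were used, with 1 library per group, and the 4 inputs were not analysed here on their own. BWA, MACS2 and the build hg19 are named in the submitters' processing notes, without roles, versions or settings. Peak names in the deposited lists show 1 control library for each, the same one for MYC and parental 786-O GFP. Per the labels' protocols, cross-linking took 10 min in 1% formaldehyde, and sonication gave fragments of about 500 bp. Scores deposited by the authors were taken as −log10 values of a p or q, because every list starts just above 2. The lists give no read counts, so depth is unknown. Peak starts and ends were deposited in bp on hg19.

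Peaks with any base within 10 kb of a TSS were taken, ranked by score in their list (ties at the better rank), and compared by overlap of at least 1 bp. The members and lists were chosen with earlier results of these data known, and the named genes are the 3 members. Genes of the same pathways had been planned, but need an hg19 annotation and were not analysed here. RefSeq sequences matched 3 of 3 members; for ACSF3, listed with 2 promoters, the one at the annotated start of the gene was used. Overlap and motif rules were tested on simulated data. Software was matplotlib 3.10.9, pandas 2.3.3, Python 3.11.15 with numpy 2.4.6, and scipy 1.17.1.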

Additional observations from a re-analysis of the deposited data

How the results depend on the processing

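Ranks by score within chromosomes 1 to 22 and X, or without peaks at parental peaks, stayed within 1.5 times those reported. By score per base, the tagged 786-O ranks became 125 for TIGAR, 86 for SLC7A6 and 62 for ACSF3, the A498 ranks 37, 75 and 20, and the MYC ranks 3688, 12128 and 4930. This changed the order of the genes in each of these lists. In tagged 786-O, TIGAR went from highest to lowest and ACSF3 became highest. ACSF3 went from lowest to highest in A498, and SLC7A6 from highest to lowest for MYC. The measure divides by width, so a wide peak ranks lower. By width, the ranks of TIGAR, SLC7A6 and ACSF3 were 1594, 2503 and 2983 in tagged 786-O, 306, 101 and 1724 in A498, and 9535, 807 and 7859 for MYC. The window sets how many peaks are counted over the 3 genes: tagged 786-O had 4 at 10 kb, 7 at 50 kb, 9 at 100 kb and 110 at 1 Mb; MYC had 4, 7, 9 and 123; tagged A498 had 3 at 10 kb and 39 at 1 Mb; parental 786-O had 0, 1, 1 and 9; and parental A498 had 0 at 10 kb and 2 at 1 Mb. With 50% reciprocal overlap, 2 of 3 members kept an A498 partner (not ACSF3) and 2 of 3 a MYC partner (not TIGAR), and with midpoints within 200 bp 2 of 3 kept a MYC partner (not SLC7A6). Widths among the nearest 100 peaks are given with the results. No paired analysis was possible because each group is 1 library. Leaving out a replicate was not possible for the same reason.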
